A study of Mus musculus with 11 samples.

Results

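Olfactory receptor genes with measurable transcript levels in podocytes of untreated mice are described here. They were chosen by their measured level: a protein-coding gene with a symbol of the form Olfr plus a number was taken where its mean over the 5 libraries from untreated mice was at least 5 CPM, the estimated counts of all its transcripts scaled to a fixed library total (counts per 1000000). The rule took 274 of 1135 protein-coding olfactory receptor genes (24.1%), called members below, and left 861 other olfactory receptor genes. Sorted podocytes, the epithelial cells that cover the outside of the glomerular capillaries, were profiled by bulk RNA sequencing in 11 libraries. All mice were labelled C57BL/6, which the study's methods give as a C57BL/6N background, and carried PodCre, which drives Cre recombinase and the fluorophore mTomato from a podocyte-specific promoter, so that every library came from fluorescence-sorted cells of a Cre-carrying animal. In MyD88pko mice both Myd88 alleles were floxed, and the sorted controls labelled WT had wild-type Myd88 alleles with the same PodCre. Nephrotoxic nephritis (NTN), an antibody-mediated glomerulonephritis, was induced in male mice aged 8 to 16 weeks with nephrotoxic sheep serum at 9 µl per g body weight on 2 consecutive days, and podocytes were taken on day 5. The groups were MyD88pko NTN (n = 3), WT NTN (n = 3), MyD88pko untreated (n = 2) and WT untreated (n = 3), the untreated mice being labelled healthy and drawn from animals analysed between 8 and 52 weeks of age. The sex and exact age of the untreated mice were not given in the sources used here, so neither can be told apart from treatment. Whether each library was 1 mouse was not stated, and the tests therefore speak of the spread among libraries only.

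Olfactory receptors are G protein-coupled receptors that sense odorants in the nose. In a mature olfactory sensory neuron a single receptor gene is chosen from the family, its product is carried to the cilia by the chaperones RTP1 and RTP2, and an odorant activates the G protein subunit encoded by Gnal, adenylyl cyclase 3 and a cyclic nucleotide-gated channel. The coding region of a receptor lies within a single exon, and the genes stand in clusters on most chromosomes. Transcripts of some family members are also known from organs outside the nose, the kidney among them. For most members no ligand is given here, and a member is identified by its position and transcript.

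The 11 libraries held between 14563271 and 32764201 estimated counts. Myd88, the targeted gene, stood at 0.54, 0.533 and 0.427 CPM in the MyD88pko NTN libraries, against 11.2, 7.81 and 13.9 CPM in the WT NTN libraries. It stood at 0.944 and 0.19 CPM in MyD88pko untreated libraries, against 5.77, 7.7 and 7.22 CPM in WT untreated libraries. The genotype labels and this gene matched in all 11 libraries. The 15 podocyte markers summed to 34360 to 45770 CPM in NTN libraries and to 46510 to 53380 CPM in untreated libraries, and all 15 averaged at least 1 CPM in the untreated libraries. The 10 mesangial and smooth muscle markers summed to 394.9 to 651.4 CPM in NTN libraries, against 113 to 149.3 CPM in untreated libraries, and the 10 markers of glomerular endothelium to 97.6 to 260.8 CPM, against 47.24 to 102.9 CPM. Tagln, a smooth muscle actin-binding protein, made up most of the mesangial and smooth muscle sum in NTN, at 259 to 447 CPM in NTN libraries, against 15.5 to 22.4 CPM in untreated libraries. The other 9 of these markers summed to 112 to 250.1 CPM in NTN and 90.55 to 133.5 CPM in untreated libraries, with overlapping ranges and the third MyD88pko NTN library lowest of the NTN libraries. Of the 10 mesangial and smooth muscle markers, 1 was called higher in NTN in MyD88pko and 5 in WT. Of the 10 endothelial markers, 2 were higher in MyD88pko and 6 in WT. No marker of either list was called lower. Among all genes tested, 11.3% were higher in MyD88pko and 15.9% in WT. Of the 15 podocyte markers, 5 were lower in MyD88pko and 9 in WT, and 1 was higher in each. Lower calls took 8.22% and 9.93% of all genes tested. In these sums from bulk samples, fewer cells of a type and less RNA per cell cannot be told apart.

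The members were spread over the clusters of the family. Of the 274 members, 76 lay on chromosome 2, 59 on chromosome 7, 32 on chromosome 9 and 23 on chromosome 11, and the other olfactory receptor genes followed a like order with 218, 185, 100 and 59 genes. Another olfactory receptor gene lay within 50000 bases of 261 members (95.3%), against 98% of the other genes. Exons of another gene overlapped on the same strand in 12 members and on the opposite strand in 8. The library preparation did not mark strand, so reads of such pairs cannot be told apart.

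Members differed from the other olfactory receptor genes in the transcript models that carried their counts. The leading transcript, the model with the most counts in untreated libraries, or the longest model where a gene had none, had a median length of 4128 bases in members and 2497 bases in the other genes. The coding region had a median of 936 bases in both, so the difference lay in bases outside the coding region, with medians of 3242 and 1625 bases. More than 1000 non-coding bases were present in 265 members (96.7%) and in 570 other genes (66.2%). Of all the counts of members, 98.7% in NTN libraries and 98.1% in untreated libraries were on transcript models with more than 1000 non-coding bases. There were 196 members that had both such a long model and a model of the coding region with at most 100 bases added. In all 196 the short models had no counts in untreated libraries, and they took 0.0095% of those genes' counts in NTN libraries. A single model held at least 90% of the counts in 251 members. These lengths were not used by the rule directly, but CPM rises with transcript length at an equal number of molecules.

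Leading transcripts of members more often held sequence found in many genes. A 31-base word, the length that the pseudoaligner kallisto matches, that was present in transcripts of more than 10 genes was found in 226 of 274 members (82.5%) and in 291 of 861 other olfactory receptor genes (33.8%). A simple repeat of at least 24 bases was found in 151 members (55.1%) and 179 other genes (20.8%). The difference was also present among transcripts of like length. For leading transcripts of 4000 to under 6000 bases, 100 of 167 genes with such a word were members (59.9%), against 11 of 52 genes without (21.2%). Below 2000 bases the shares were 8 of 64 (12.5%) and 4 of 272 genes (1.47%). The share of 31-base words found in any other gene was alike, with medians of 9.46% in members and 8.97% in the other olfactory receptor genes. In coding regions the medians were 17.95% and 22.96%, and outside them 5.55% and 0.43%. The part that shared sequence has in the level of a member was not tested.

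**Figure D1:**
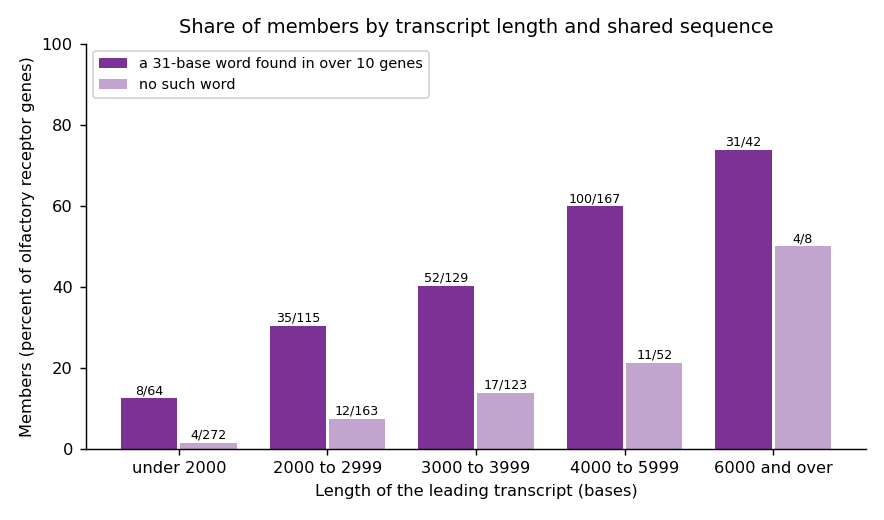
Share of olfactory receptor genes that are members (y axis, percent) by the length of the leading transcript (x axis, bases) and by whether that transcript holds a 31-base word found in transcripts of over 10 genes. The numbers above the bars give members over all genes of the class. In every length class the bar for genes with such a word is the taller, from 12.5% against 1.47% below 2000 bases to 73.8% against 50% at 6000 bases and over.

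RefSeq start sites were set beside these models to see whether promoter windows of the members could be read. A window of 250 bases before to 50 bases after a RefSeq start was found for 226 members, but the RefSeq start lay a median of 3089 bases from the start of the leading transcript, and within 200 bases in only 19 members. Across all 227 windows of members the TATA box core TATAAA was present on either strand in 40.5%, against 41.2% of the windows of other olfactory receptor genes and 13.6% of all 32851 windows. The homeodomain core TAATTA was present in 16.7%, against 19.2% and 5.29%, and CCCNNGGG, a core bound by EBF factors, in 2.64%, against 3.11% and 13.7%. None of the 3 motifs contains another. Their shares in members were within 3 percentage points of those in the other olfactory receptor genes. The 3 members that the results below turn on, with a RefSeq start within 200 bases of the leading transcript's start, are shown by the 250 bases before that start (RefSeq, GRCm38.p6, 5′ to 3′ on the gene's strand, chr7:140601090-140601339 for Olfr46, chr7:103464127-103464376 for Olfr607 and chr11:52145529-52145778 for Olfr1373). Olfr46 had the highest CPM of all members, Olfr607 the fourth highest, and Olfr1373 the lowest level in NTN. Capitals mark a motif match, TAATTA in Olfr607 and TATAAA read on the opposite strand in Olfr1373, and Olfr46 had none.
Olfr46: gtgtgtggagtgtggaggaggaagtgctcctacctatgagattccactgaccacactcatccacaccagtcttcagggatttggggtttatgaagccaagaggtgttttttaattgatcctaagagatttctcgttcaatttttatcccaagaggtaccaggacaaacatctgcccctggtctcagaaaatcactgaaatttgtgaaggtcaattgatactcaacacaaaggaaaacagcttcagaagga
Olfr607: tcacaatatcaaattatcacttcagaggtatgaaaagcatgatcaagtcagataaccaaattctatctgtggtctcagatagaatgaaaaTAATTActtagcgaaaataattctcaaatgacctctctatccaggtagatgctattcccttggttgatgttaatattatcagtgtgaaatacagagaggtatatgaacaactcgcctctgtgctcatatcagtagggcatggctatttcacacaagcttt
Olfr1373: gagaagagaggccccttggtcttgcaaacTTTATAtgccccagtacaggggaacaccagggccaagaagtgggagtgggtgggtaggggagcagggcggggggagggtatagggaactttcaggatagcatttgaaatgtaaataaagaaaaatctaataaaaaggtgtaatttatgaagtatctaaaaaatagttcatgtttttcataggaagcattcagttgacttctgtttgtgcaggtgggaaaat

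Levels in untreated podocytes were low for most members and even among libraries. The mean over the 5 untreated libraries was at least 100 CPM in 6 members, between 10 and 100 CPM in 144 and between 5 and 10 CPM in 124, with a median of 10.9 CPM. Every member had counts in every one of the 11 libraries, and 210 members were at 5 CPM or above in each of the 5 untreated libraries. Together the members took 90.2% of all olfactory receptor CPM in untreated libraries, and the 10 highest members took 23.9% of the members' sum. The coefficient of variation over the 5 untreated libraries had a median of 16.6% in members, against 18.2% in 9799 other protein-coding genes in the same range of mean CPM. The order of the 274 members was much the same in each untreated library, with Spearman's rho of 0.838 to 0.938 across genes over the 10 pairs of libraries. Genes share their library and are not independent replicates, so these values are a description. At the edge of the rule, Olfr655 and Olfr420 averaged 5.01 and 5 CPM, and the first genes left out were Olfr273 at 4.98 CPM and Olfr1420 at 4.94 CPM.

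Per length, the order of the members changed. TPM, the same kind of share after division by transcript length, were recomputed from the estimated counts and effective lengths, and the median over members was 6.11 TPM. Olfr1033, on chromosome 2, had the highest mean, 320.7 ± 70.7 TPM (SD, n = 5), from a leading transcript of only 316 bases. Its untreated levels were 324.7 and 333.5 TPM in MyD88pko libraries and 209.4, 329.5 and 406.5 TPM in WT libraries. Its CPM ranked only 37 among the members, at 38.03 ± 7.65 CPM (SD, n = 5). Olfr46, on chromosome 7 (140601269 to 140617678, GRCm38), followed at 63.4 ± 6.49 TPM and had the highest CPM, 249.3 ± 24.9 (SD, n = 5), on a transcript of 7750 bases. Olfr784 (59.2 ± 12.3 TPM), Olfr1348 (59.2 ± 20.2 TPM), Olfr1385 (59.0 ± 4.398 TPM), Olfr90 (56.7 ± 5.54 TPM), Olfr667 (54.1 ± 6.58 TPM) and Olfr635 (52.7 ± 5.45 TPM; SD, n = 5 for each) came next, and the library values of any pair of them overlapped. The leading transcript of Olfr1348 was also short, at 468 bases. Olfr986, Olfr648, Olfr607, Olfr539, Olfr152, Olfr639 and Olfr624 had means of 33.9 to 44.1 TPM. Olfr539 varied most in TPM among these, with 12.9, 31.8 and 60.9 TPM in WT untreated libraries while its CPM stayed between 52.2 and 60.7 there, and 93.4% of its counts were on a model of 11486 bases, the rest on other models.

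Genes known from other work on the family or the kidney were looked up after the values were seen. Olfr78, known in mice from renal arterioles and as a receptor for short-chain fatty acids, averaged 3.81 ± 0.50 CPM (SD, n = 5) and was not a member, and Olfr558 averaged 0.30 ± 0.38 CPM. Olfr1393, known in mice from the proximal tubule, was a member at 6.25 ± 3.78 CPM. It stood at 10.01 and 10.33 CPM in MyD88pko untreated libraries, against 3.37, 5.45 and 2.07 CPM in WT untreated libraries. Its WT untreated mean was 3.63 CPM, so it met the 5 CPM of the rule only through the MyD88pko libraries. The genotype difference in untreated podocytes was not called (log2 fold change 1.47, edgeR adjusted p = 0.691). Of its counts, 55.2% were on the leading transcript, and 43.1% of that transcript's words of the length kallisto matches are also in other genes. Olfr2, the octanal receptor known as I7, was a member at 40.0 ± 5.33 CPM and Olfr691 at 16.7 ± 2.59 CPM.

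Genes that act with olfactory receptors in sensory neurons were detected in part. Of 9 markers of mature olfactory sensory neurons, Omp, Cnga2 and Gng13 had no counts in any untreated library, and 3 (Stoml3, Adcy3 and Gnal) averaged at least 1 CPM. The 9 markers together summed to 23.5 to 41.41 CPM in NTN libraries, against 19.41 to 23.77 CPM in untreated libraries. Of 22 genes of olfactory signal transduction, 16 averaged at least 1 CPM in untreated libraries, among them Gnas and Gnb1, which encode G protein subunits used by most cells. Cngb1, a channel subunit, averaged 9.52 CPM in MyD88pko NTN libraries, 10.3 CPM in WT NTN, 5.88 CPM in MyD88pko untreated and 5.51 CPM in WT untreated. Of 24 genes for receptor trafficking and receptor choice, 17 averaged at least 1 CPM, while Lhx2, a homeodomain factor needed for receptor choice, had none and the chaperone Rtp1 averaged 0.394 CPM in WT untreated libraries and 0 CPM in MyD88pko untreated libraries.

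In NTN the members' levels were higher in 5 of 6 libraries and more uneven. Members summed to 11790, 14190 and 5134 CPM in MyD88pko NTN libraries and to 13700, 9859 and 8566 CPM in WT NTN libraries, against 6069 and 6452 CPM in MyD88pko untreated and 5382, 6036 and 5951 CPM in WT untreated libraries. The third MyD88pko NTN library was thus below every untreated library, while the other 5 NTN libraries were above all of them. The coefficient of variation over the 6 NTN libraries had a median of 33.3% in members and 16.2% in the 9799 other protein-coding genes. The other olfactory receptor genes summed to 795.9 to 2554 CPM in NTN and 583.6 to 688.7 CPM in untreated libraries. Vomeronasal receptor genes, the pheromone receptors of the Vmn1r and Vmn2r families (321 genes), summed to 274.5, 340.1 and 99.2 CPM in MyD88pko NTN and 352.2, 205.6 and 166.5 CPM in WT NTN, against 43.2 to 62.0 CPM in untreated libraries. Among NTN libraries of each genotype, the library with more vomeronasal CPM also had more member CPM, and the part this has in the members' levels was not tested. Per length the members differed less, summing to 2247 to 5610 TPM in NTN libraries, against 2701 to 3375 TPM in untreated libraries, and the WT NTN range of 3207 to 5042 TPM met the WT untreated range of 2701 to 3249 TPM.

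**Figure D2:**
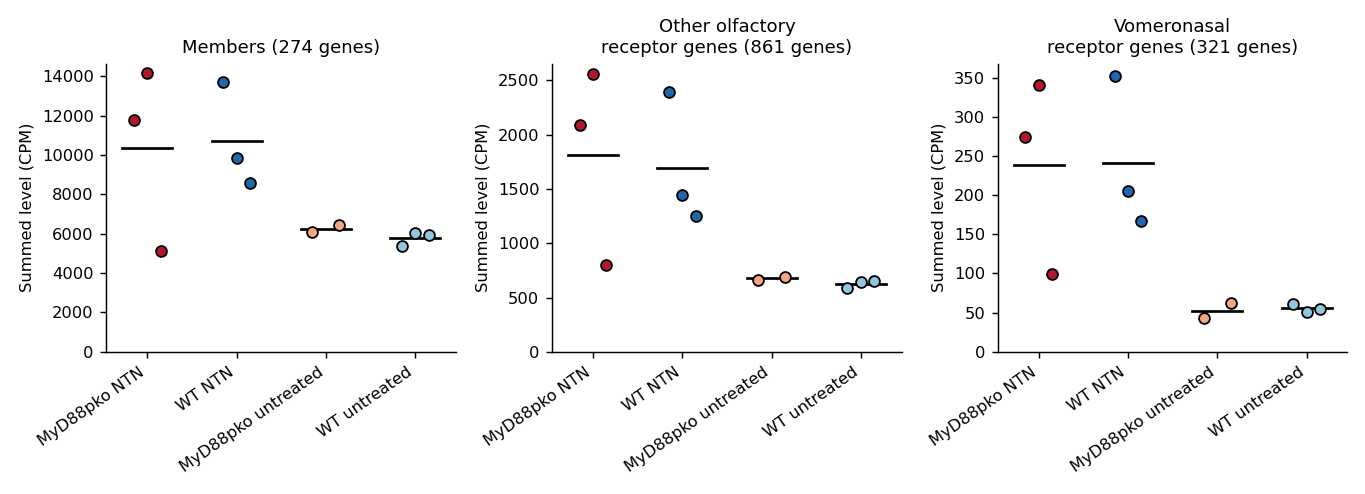
Summed level (CPM, y axis) of members, other olfactory receptor genes and vomeronasal receptor genes in each library, by group (x axis). Points are libraries and bars are group means. The third MyD88pko NTN library has the lowest NTN value in all 3 panels (5134, 795.9 and 99.2 CPM), and in the members' panel it lies below every untreated library.

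In WT podocytes, more members were higher in NTN than lower. By edgeR's quasi-likelihood test with Benjamini-Hochberg adjustment over 21200 genes, 85 of 274 members were higher and 6 were lower at an adjusted p under 0.05, against 15.9% higher and 9.93% lower among all genes tested. The members' median log2 fold change was 0.61, against 0.19 over all genes tested. Untreated levels chose the members and enter this contrast, so these counts are given as a description, and the adjusted p-values below are not independent of the choice. The count rests in part on the first WT NTN library, without which 41 members were higher. It was 55 without the 3 libraries of most vomeronasal CPM, and 14 with limma on log2(TPM + 1).

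Among the members that rose in WT, Olfr432, Olfr66, Olfr46 and Olfr1438-ps1 had the smallest adjusted p. Olfr432, on chromosome 1, stood at 80.3, 98.3 and 76.4 CPM in WT NTN libraries, against 19.3, 10.3 and 10.9 CPM in WT untreated libraries, a log2 fold change of 2.56 ± 0.25 (SE; edgeR adjusted p = 6.17e-06). All 3 NTN libraries were above all 3 untreated libraries, but exons of Olfr431-ps1 overlap this gene on the same strand. Olfr66, on chromosome 7, stood at 125.9, 134.6 and 109.2 CPM in WT NTN, against 20.7, 36.2 and 34.6 CPM in WT untreated libraries, a log2 fold change of 1.94 ± 0.19 (SE; edgeR adjusted p = 6.59e-06). Olfr1438-ps1, which is annotated as protein-coding despite its symbol, stood at 405.0, 258.7 and 186.5 CPM in WT NTN, against 70.6, 60.3 and 53.4 CPM in WT untreated libraries, a log2 fold change of 2.10 ± 0.30 (SE; edgeR adjusted p = 0.00041). Both genes had NTN and untreated libraries that did not overlap. All WT NTN libraries were above all WT untreated libraries in 60.2% of members, against 28.7% of all genes tested. Olfr46, the member with the highest CPM, stood at 703.1, 675.4 and 491.4 CPM in WT NTN, against 209.1, 242.7 and 258.9 CPM in WT untreated libraries, a log2 fold change of 1.31 ± 0.18 (SE; edgeR adjusted p = 0.000102).

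Among the 15 members with the highest TPM, 4 rose and 2 fell in WT. Besides Olfr46, Olfr635 rose to 789.9, 586.4 and 440.8 CPM in WT NTN, against 190.3, 242.0 and 230.3 CPM in WT untreated libraries (edgeR adjusted p = 0.00962). Olfr607 (log2 fold change 1.28, edgeR adjusted p = 0.00713) and Olfr639 (1.21, edgeR adjusted p = 0.00817) rose as well. Exons of Olfr643 overlap Olfr639. The calls of Olfr635, Olfr607 and Olfr639 were each lost without the first WT NTN library, with log2 fold changes of 1.20, 1.06 and 1.02 and adjusted p of 0.0702, 0.0579 and 0.0663. That of Olfr635 was also lost without the first WT untreated library (log2 fold change 1.28, adjusted p = 0.0598). With limma on log2(TPM + 1) none of these 3 genes was called (log2 fold changes of 1.06, 0.98 and 0.90, adjusted p of 0.081, 0.0769 and 0.0993). Olfr1033 stood at 39.9, 42.0 and 35.6 CPM in WT NTN, against 26.3, 39.3 and 47.7 CPM in WT untreated libraries, with overlapping groups and a log2 fold change of -0.02 ± 0.18 (SE).

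The 6 members that fell in WT were Olfr1373, Olfr784, Olfr15, Olfr1382, Olfr71 and Olfr648, olfactory receptors of chromosomes 4, 7, 10, 11 and 16. Olfr784, the member with the third highest TPM, stood at 48.4, 47.3 and 42.8 CPM in WT NTN, against 91.2, 79.7 and 71.7 CPM in WT untreated libraries, a log2 fold change of -0.90 ± 0.17 (SE; edgeR adjusted p = 0.00167). Of its 31-base words, 47.9% are also in other genes. Olfr15, on chromosome 16, stood at 14.3, 13.6 and 14.9 CPM in WT NTN, against 22.0, 48.3 and 23.5 CPM in WT untreated libraries (log2 fold change -1.21 ± 0.26, SE; edgeR adjusted p = 0.00311). In both genes every NTN library was below every untreated library. That held for 4.38% of members, against 13.4% of all genes tested. Olfr1373, on chromosome 11, is a single-exon gene whose transcript of 936 bases is nearly all coding. It stood at 0.55, 0.72 and 0.94 CPM in WT NTN, against 2.11, 9.59 and 3.82 CPM in WT untreated libraries (log2 fold change -2.88 ± 0.53, SE; edgeR adjusted p = 0.00126), and 76.2% of its 31-base words are also in other genes. Olfr1382 stood at 4.68, 2.99 and 5.51 CPM in WT NTN, against 5.44, 16.1 and 13.7 CPM in WT untreated libraries, so that 1 NTN library reached the lowest untreated value (log2 fold change -1.49 ± 0.35, SE; edgeR adjusted p = 0.00647). The call of Olfr648 (edgeR adjusted p = 0.0444) was lost without any 1 of the 6 WT libraries, with adjusted p of 0.052 to 0.171.

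**Figure D3:**
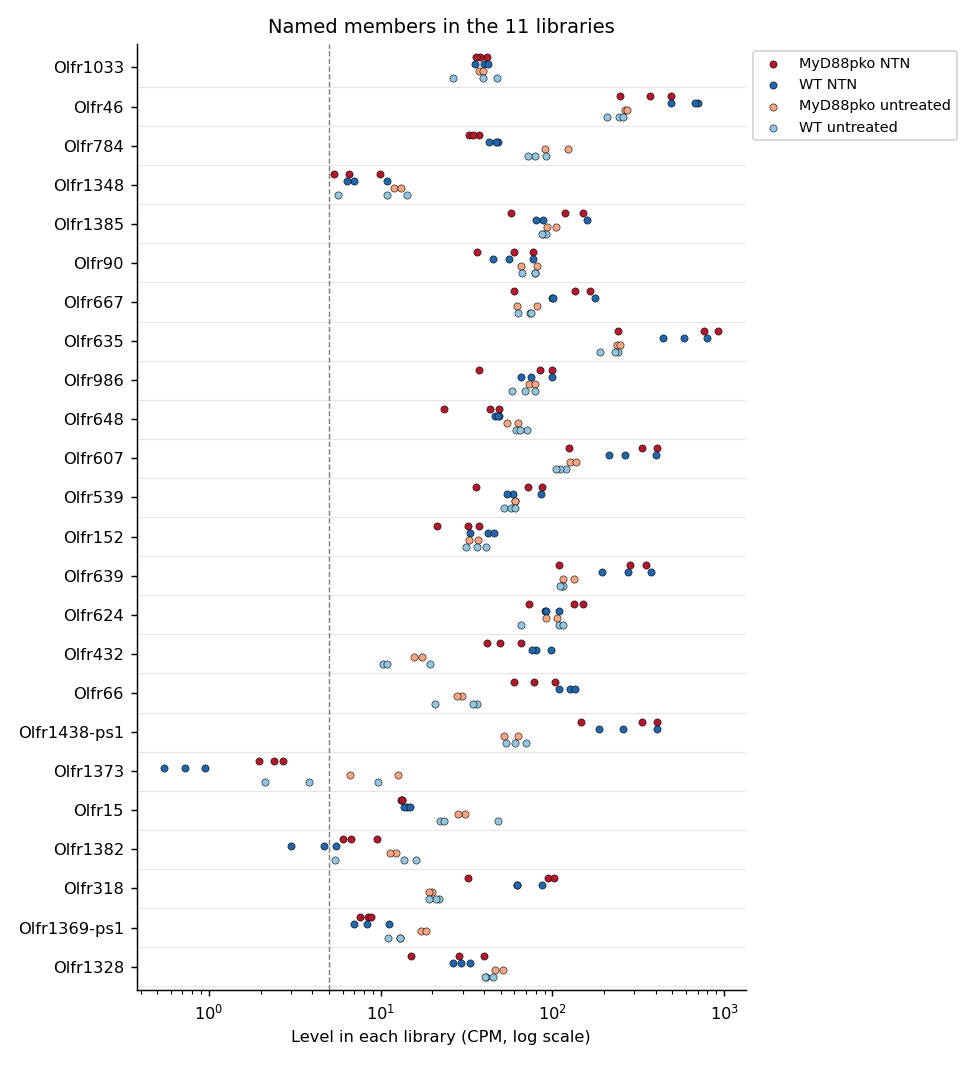
Level of each named member in the 11 libraries (x axis, CPM on a log scale), with a row for each gene and a colour for each group. Points are libraries, and the dashed line marks the 5 CPM of the rule. Olfr432, Olfr66 and Olfr1438-ps1 have all NTN points to the right of all untreated points, and Olfr784 and Olfr15 have all NTN points to the left of them.

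In MyD88pko podocytes 44 members were higher and 12 were lower in NTN, against 11.3% higher and 8.22% lower among the 21200 genes tested (edgeR adjusted p under 0.05), and the members' median log2 fold change was 0.43, against 0.16 over all genes tested. As in WT, untreated levels chose the members, so the counts are a description. The number higher shifted with every MyD88pko library left out. Without the third MyD88pko NTN library 118 members were higher, and without either of the other 2 MyD88pko NTN libraries 13 were. Without the first or the second MyD88pko untreated library, which left a single untreated library in that arm, 8 and 6 were higher. With the 3 libraries of most vomeronasal CPM left out, only the third library remained of MyD88pko NTN, 2 members were higher and 6 lower, and the median turned to -0.28.

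Olfr1438-ps1 showed the highest rise in MyD88pko podocytes, at 333.9, 407.4 and 146.8 CPM in NTN, against 52.3 and 62.8 CPM in untreated libraries (log2 fold change 2.19 ± 0.35, SE; edgeR adjusted p = 0.00122). Olfr66 stood at 78.2, 103.6 and 59.8 CPM in MyD88pko NTN, against 29.7 and 27.95 CPM in MyD88pko untreated libraries (log2 fold change 1.33 ± 0.22, SE; edgeR adjusted p = 0.000731). Olfr318 stood at 94.3, 102.1 and 32.3 CPM in MyD88pko NTN, against 19.8 and 19.2 CPM in MyD88pko untreated libraries (log2 fold change 1.79 ± 0.32, SE; edgeR adjusted p = 0.00155). In these 3 genes, and in Olfr432 at 49.6, 65.9 and 41.6 CPM in MyD88pko NTN against 15.6 and 17.5 CPM in MyD88pko untreated libraries (edgeR adjusted p = 0.0017), even the third NTN library was above both untreated libraries. All MyD88pko NTN libraries were above both untreated libraries in 14.6% of members, against 33% of all genes tested. Olfr784 fell to 32.8, 37.2 and 34.5 CPM in MyD88pko NTN, against 90.3 and 122.9 CPM in MyD88pko untreated libraries, with a log2 fold change of -1.74 ± 0.19 (SE; edgeR adjusted p = 2.91e-05). It was the lowest p among members in this comparison. Olfr15 stood at 13.4, 13.1 and 13.2 CPM in MyD88pko NTN, against 30.8 and 28.1 CPM in MyD88pko untreated libraries (edgeR adjusted p = 0.00526). Olfr1369-ps1, also annotated as protein-coding, stood at 8.39, 8.74 and 7.53 CPM in MyD88pko NTN, against 17.3 and 18.3 CPM in MyD88pko untreated libraries (edgeR adjusted p = 0.00459). Its call was lost without the second MyD88pko untreated library (adjusted p = 0.0567). Olfr1328 stood at 28.7, 40.0 and 14.9 CPM, against 51.9 and 46.2 CPM (edgeR adjusted p = 0.0104), and its call was lost without either untreated library (adjusted p of 0.0778 and 0.0515). With the 3 libraries of most vomeronasal CPM left out, Olfr318, Olfr432, Olfr15 and Olfr1369-ps1 were no longer called (adjusted p of 0.0941, 0.052, 0.209 and 0.142). Their log2 fold changes in that fit, with 1 MyD88pko NTN library left, were 0.83, 1.43, -1.06 and -1.14. Olfr1438-ps1, Olfr66 and Olfr784 were still called.

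The members higher in NTN overlapped between genotypes. There were 40 members higher in both, 90.9% of those higher in MyD88pko and 47.1% of those higher in WT. Another 5 were lower in both, 41.7% of those lower in MyD88pko and 83.3% of those lower in WT. No member was called in opposite directions. Across the 274 members the log2 fold changes of MyD88pko and WT, which share no library, had a Pearson's r of 0.853 and a Spearman's rho of 0.846. The points share base composition, transcript length and the sequencing of their libraries, so this is a description. Neither the overlap of calls nor the correlation is given here over all genes tested, so neither is shown to be particular to the members. Members that rose in WT had leading transcripts with a median of 4526 bases and a simple repeat in 60 of 85 (70.6%), those that fell had a median of 3024 bases and a repeat in 1 of 6, and those not called had 3886 bases and a repeat in 90 of 183 (49.2%). In MyD88pko the repeat was present in 31 of 44 members that rose (70.5%), 4 of 12 that fell and 116 of 218 not called (53.2%).

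**Figure D4:**
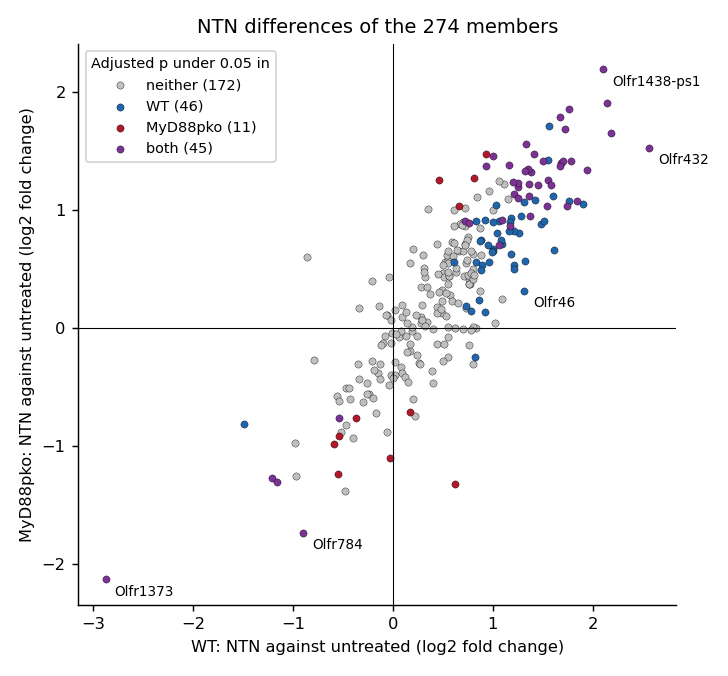
Log2 fold change of NTN against untreated for the 274 members in MyD88pko (y axis) and WT podocytes (x axis). Points are genes, coloured by the genotype in which the edgeR adjusted p was under 0.05. The points follow a rising band (Pearson's r of 0.853 across genes), and Olfr46 lies below it with 0.31 in MyD88pko and 1.31 in WT.

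Whether the knockout changes the members in nephritis was asked by setting MyD88pko NTN against WT NTN. Neither group holds a library of the rule, but the SE and p-values use a spread estimated over all 11 libraries. The members' median coefficient of variation was 16.6% over the untreated and 33.3% over the NTN libraries. No member passed the adjusted threshold by edgeR, against 0.0613% of all genes tested (13 of 21200). At an unadjusted p under 0.05 there were 12 members (4.38%, against 6.04% of all genes tested), 1 higher and 11 lower in MyD88pko. The members' log2 fold changes had a median of -0.12 and a range of -0.90 to 1.64. Their median SE was 0.30, so differences as small as that median could not be detected in a typical member. DESeq2 called 2 members lower, Olfr46 and Olfr1423, and limma on log2(TPM + 1) called none.

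Olfr46 had the smallest p. It stood at 369.7, 492.1 and 248.5 CPM in MyD88pko NTN, against 703.1, 675.4 and 491.4 CPM in WT NTN libraries. The second MyD88pko library just reached the lowest WT library, and the log2 fold change was -0.83 ± 0.18 (SE; edgeR adjusted p = 0.139). Its adjusted p was 0.0281 without the third WT NTN library, 0.0122 by DESeq2 and 0.00228 with no filter on low counts. Olfr66 stood at 78.2, 103.6 and 59.8 CPM in MyD88pko NTN, against 125.9, 134.6 and 109.2 CPM in WT NTN libraries, with no overlap (log2 fold change -0.69 ± 0.19, SE; edgeR adjusted p = 0.343). Olfr432 stood at 49.6, 65.9 and 41.6 CPM in MyD88pko NTN, against 80.3, 98.3 and 76.4 CPM in WT NTN libraries, also with no overlap (log2 fold change -0.77 ± 0.23, SE; edgeR adjusted p = 0.428). Both had an adjusted p under the threshold with no filter on low counts, 0.0497 and 0.0308. Olfr46, Olfr66 and Olfr432 had been named at least in part for a rise in WT NTN, and Olfr1373 for a fall. That choice used the same WT NTN libraries, so the differences of these named genes are not independent of it. All MyD88pko NTN libraries were below all WT NTN libraries in 4.01% of members, against 6.1% of all genes tested. They were above them in 0.73% of members, against 10.3% of all genes tested. Olfr1373 was the 1 member of the 12 that was higher, at 1.96, 2.41 and 2.69 CPM in MyD88pko NTN, against 0.55, 0.72 and 0.94 CPM in WT NTN libraries (log2 fold change 1.64 ± 0.52, SE; edgeR adjusted p = 0.482).

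**Figure D5:**
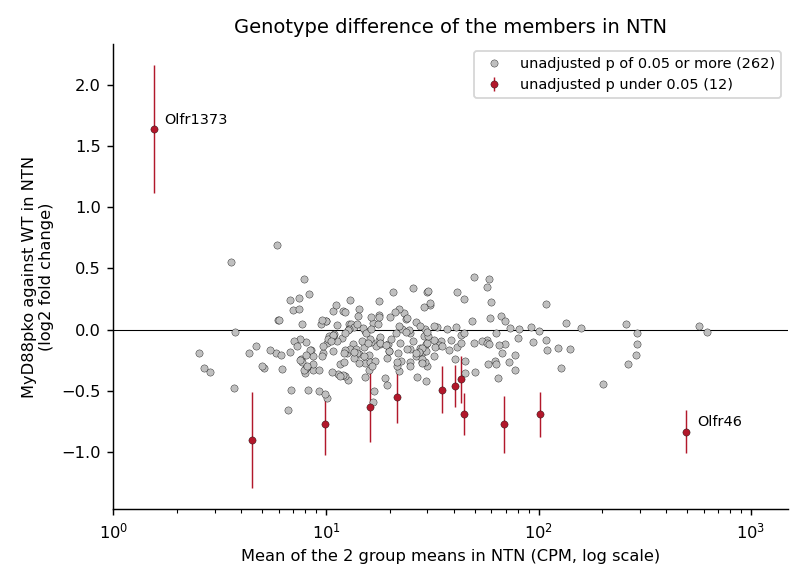
Log2 fold change of MyD88pko NTN against WT NTN (y axis) by the mean level in NTN (x axis, CPM on a log scale) for the 274 members. Red points with SE bars are the 12 members with an unadjusted p under 0.05, none of which passed the adjusted threshold. Olfr46 lies lowest among the highly expressed members at -0.83, and Olfr1373 is the highest at 1.64.

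Without nephritis the genotypes were also set side by side, as a comparison within the libraries of the rule. No member was called by edgeR, against 0.0189% of all genes tested, and 8 members had an unadjusted p under 0.05 (2.92%, against 5.6% of all genes tested). The median log2 fold change of MyD88pko over WT was 0.09, with a median SE of 0.34. Both MyD88pko untreated libraries were above all WT untreated libraries in 17.5% of members, against 9.86% of all genes tested. They were below them in 5.84% of members, against 7.59% of all genes tested. Olfr46 stood at 263.2 and 272.5 CPM in MyD88pko untreated, against 209.1, 242.7 and 258.9 CPM in WT untreated libraries (log2 fold change 0.17 ± 0.19, SE). For the difference between the NTN responses of MyD88pko and WT no member was called either, against 0.00472% of all genes tested, and 12 members had an unadjusted p under 0.05 (4.38%, against 5.81% of all genes tested), the lowest adjusted p being 0.468. DESeq2 and limma also called none in these 2 comparisons.

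The other receptor families were read in the same fit. Of 615 other olfactory receptor genes that passed the filter on low counts, 219 were higher and 0 lower in WT NTN against WT untreated (median log2 fold change 2.23), and 110 were higher and 0 lower in MyD88pko. Many of these genes passed the filter only through the NTN libraries, since 421 of the 861 had no counts in any untreated library, so these counts are no support for a rise. Counts above 0 were found for 1134 of the 1135 olfactory receptor genes in at least 1 NTN library and for 714 in at least 1 untreated library. Over all genes, 24502 to 28672 were above 0 in each NTN library, against 18420 to 19996 in each untreated library. The NTN libraries also held more counts, 20080140 to 32764201, against 14563271 to 19483013 in untreated libraries. Over the 6 NTN libraries, an average of 5 CPM or more was reached by 264 of the members and by 108 other genes. Of the signal transduction list, 9 of 20 tested genes were higher and 0 lower in WT NTN, against 15.9% higher among all genes tested. The 9 include Ano2, a chloride channel, and Omp. Neither had counts in any untreated library, so both passed the filter only through the NTN libraries and are no support for a rise. Slc12a2, a chloride importer, stood at 29.5 ± 15.5 CPM in WT NTN and 7.16 ± 1.43 CPM in WT untreated libraries (SD, n = 3 each; edgeR adjusted p = 0.000616). In MyD88pko 7 were higher, Ano2 again among them, and 0 lower, against 11.3% higher and 8.22% lower among all genes tested. Slc12a2 was not called there, at 19.3, 17.3 and 8.39 CPM in MyD88pko NTN, against 11.1 and 10.1 CPM in MyD88pko untreated libraries (edgeR adjusted p = 0.525). Of the trafficking and choice list, 4 of 21 were higher and 2 lower in WT NTN, against 15.9% higher and 9.93% lower among all genes tested. Ebf1, a factor of the EBF family that mesenchymal and B cells also use, stood at 19.5 ± 6.29 CPM in WT NTN and 4.37 ± 1.18 CPM in WT untreated libraries (SD, n = 3 each; edgeR adjusted p = 0.00225). In MyD88pko 3 of the 21 were higher and 2 lower, against 11.3% higher and 8.22% lower among all genes tested. No gene of either list was called between genotypes in NTN.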

How the data were processed

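Podocyte RNA was pre-amplified with poly(T) and random primers and tagmented without strand marking. Per the study's methods, reads were trimmed with cutadapt and pseudoaligned with kallisto to Ensembl transcripts (GRCm38). The deposited tables hold estimated counts and effective lengths per transcript, made by the authors. Here the expected counts were summed per gene with GENCODE M21 (107987 of 109282 transcripts matched; the others took 0.467% to 0.638% of counts), rounded, and tested with edgeR 4.0.16 (TMM, filterByExpr with a minimum count of 10, robust quasi-likelihood, all 4 groups in 1 fit) in R 4.3.3. Fold changes are therefore relative to TMM scaling, while CPM are relative to the library total. TPM were recomputed. Alternatives used DESeq2 1.42.0 and limma 3.58.1. Estimated counts of near-identical receptors are divided by kallisto's model, so levels of single members with much shared sequence are uncertain. Named genes are the 15 members with the highest TPM and up to 4 members per direction with the smallest adjusted p under 0.05 in each of the 5 comparisons. Genes looked up by earlier knowledge, Olfr71 and Olfr1423 were named after their values were seen. The members and lists were chosen with earlier results of these data known.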

Additional observations from a re-analysis of the deposited data

How the results depend on the processing

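Totals of 14563271 to 32764201 counts and 2 or 3 libraries per group limit what can be seen, and members near 5 CPM rest on few reads. The number of members was 415 at a threshold of 2 CPM, 150 at 10 CPM and 168 at a mean of 5 TPM. Members higher in NTN against untreated in WT numbered 85, and 14 or 17 with limma on log2(TPM + 1) or log2(TPM + 0.1), 55 without the 3 libraries of most vomeronasal signal, and 41 to 90 over the libraries left out in turn. In MyD88pko the 44 became 79 with no filter, 7 with limma at either pseudocount, 26 with only the 2 groups compared, 2 without the 3 libraries of most vomeronasal signal, and 6 to 118 over the libraries left out in turn. The 12 lower became 6 with only the 2 groups compared, 6 without those 3 libraries, and 3 to 12 over the libraries left out in turn. Where this left a single library in an arm, that library was assumed to vary like the other groups. Between genotypes in NTN, 0 members lower became 2 by DESeq2, 3 with no filter and 0 to 1 over the libraries left out in turn. The genotype comparison in untreated podocytes and the difference of responses gave 0 members under every alternative run. No direction of a called named member reversed. The causes were not tested. No paired analysis was possible because the labels give no replicate numbers shared between groups.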

Other observations

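Pseudogenes of the family were also read. Of 272 genes annotated as olfactory receptor pseudogenes, 3 averaged at least 5 CPM over the untreated libraries and were named after their values were seen. Olfr1372-ps1 was the highest of them and would have ranked among the 10 highest members, at 85.2, 104.0 and 50.2 CPM in MyD88pko NTN and 81.3, 76.2 and 75.8 CPM in WT NTN libraries, against 117.0 and 123.0 CPM in MyD88pko untreated and 94.6, 111.0 and 105.0 CPM in WT untreated libraries. Olfr1372-ps1 was lower in NTN, with a log2 fold change of -0.75 ± 0.19 in MyD88pko (SE; edgeR adjusted p = 0.0104). In WT it was -0.50 ± 0.17 (SE; edgeR adjusted p = 0.0397). Olfr75-ps1 averaged 9.06 CPM and Olfr300-ps1 8.08 CPM over the 5 untreated libraries, and neither was called in NTN against untreated. Together the 272 pseudogenes summed to 100.1 to 303.1 CPM in NTN libraries and 138.7 to 169.4 CPM in untreated libraries.

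The 15 trace amine-associated receptor genes, a further family of chemosensory receptors, had no counts in any untreated library and summed to 0.0916 to 2.47 CPM in NTN libraries. The 38 bitter and sweet taste receptor genes summed to 16.1 to 21.2 CPM in NTN libraries and 17.9 to 40.1 CPM in untreated libraries, with overlapping ranges.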
